A study of Mus musculus with 10 samples.

Results

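Indian hedgehog (*Ihh*) and the genes that receive and answer its signal were followed in the uterus of mice that express human HSD17B1, the enzyme that turns estrone into the potent estrogen estradiol. The 8 genes of the axis were chosen by symbol and reported role: the ligand *Ihh*, the receptor *Ptch1*, the signal transducer *Smo*, the ligand-binding inhibitor *Hhip*, the transcription factors *Gli1*, *Gli2* and *Gli3*, and *Nr2f2*, which encodes the nuclear receptor COUP-TFII. All 8 were among the 29268 genes of the deposited table, and all 8 had enough counts to be among the 16993 genes tested. The samples were uterine tissue of 5 HSD17B1TG and 5 WT females at the age of 4 months, 1 library per mouse, all of the FVB/N strain. The HSD17B1TG mice are heterozygous for a human HSD17B1 cDNA under a chicken beta-actin promoter with a cytomegalovirus enhancer, which is active in most tissues, so the transgene is not limited to the uterus. The WT mice lack the transgene, and the labels name no treatment for either group. In the methods of the study, HSD17B1TG females do not cycle, and uteri of WT females were taken at random phases of the cycle. The cycle phase of each sequenced WT mouse was not given in the sources used here, so genotype and cycling cannot be told apart. HSD17B1TG mice are written TG1 to TG5, and WT mice WT1 to WT5, by rising animal number. The human cDNA is not part of the mouse annotation, so the counts hold no direct check of the transgene.

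In the uterus, progesterone acting through its receptor raises *Ihh* in the epithelium, and the secreted ligand reaches the stroma below. There it binds PTCH1, which frees SMO from inhibition, and the GLI factors then turn on target genes that include *Gli1*, *Ptch1* and *Hhip* themselves. COUP-TFII is a stromal factor that lies downstream of hedgehog signalling and is needed for *Bmp2* and the decidual response. The libraries were made from uterine tissue and not from separated cells. A lower value can therefore come from fewer cells of a type or from less RNA per cell, which cannot be told apart here.

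The promoters of *Ihh*, *Ptch1* and *Hhip* are shown because these 3 genes, the ligand and the proteins that bind it, had lower levels together in the HSD17B1TG uterus. Each line gives the 250 bases before the RefSeq transcription start on build GRCm38.p6, written in the direction of transcription. Capitals mark GC boxes (GGGCGG or its reverse complement CCGCCC). None of the windows shown overlaps an annotated exon, and that of *Ptch1* lies inside the annotated gene, before a start downstream of the first.
Ihh (chr1:74951673-74951922, minus strand): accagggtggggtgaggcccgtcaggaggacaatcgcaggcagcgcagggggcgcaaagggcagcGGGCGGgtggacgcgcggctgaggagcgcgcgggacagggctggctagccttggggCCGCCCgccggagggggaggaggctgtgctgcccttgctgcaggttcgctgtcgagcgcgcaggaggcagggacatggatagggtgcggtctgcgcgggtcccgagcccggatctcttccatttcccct
Ptch1 (chr13:63565736-63565985, minus strand): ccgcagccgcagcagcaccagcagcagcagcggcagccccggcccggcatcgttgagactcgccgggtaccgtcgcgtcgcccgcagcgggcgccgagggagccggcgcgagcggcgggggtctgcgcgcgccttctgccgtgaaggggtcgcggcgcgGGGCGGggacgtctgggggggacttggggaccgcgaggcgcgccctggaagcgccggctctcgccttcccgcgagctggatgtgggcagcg
Hhip (chr8:80058009-80058258, minus strand): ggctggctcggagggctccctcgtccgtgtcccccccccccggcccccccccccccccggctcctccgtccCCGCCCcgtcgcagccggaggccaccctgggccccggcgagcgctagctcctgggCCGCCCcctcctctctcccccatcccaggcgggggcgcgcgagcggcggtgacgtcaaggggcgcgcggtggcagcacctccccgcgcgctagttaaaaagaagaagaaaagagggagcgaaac
The windows of *Ihh* and *Hhip* held 2 GC boxes each and that of *Ptch1* held 1. GC made up 72.0% of the bases at *Ihh*, 78.4% at *Ptch1* and 76.0% at *Hhip*, against a median of 52.4% over 32851 windows of the same length. CpG dinucleotides numbered 24, 41 and 28 in the same order, against a median of 6. On both strands, the GLI consensus GACCACCCA was in 0 of the windows of the 7 members found in the table, and in 0.225% of all windows. Its core CCACCCA, which the consensus contains, was also in 0 of 7 and in 8.11% of all. A GC box was in 5 of 7 and in 32.7% of all, and this motif was added after the windows had been seen. These letters are a description of short windows, and enhancers further away were not searched. *Gli1* had no entry in the promoter table.

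Every member had a lower fitted level in HSD17B1TG than in WT. *Gli1*, *Ihh*, *Hhip* and *Ptch1* passed an adjusted p-value of 0.05 in edgeR's quasi-likelihood test (Benjamini-Hochberg over the 16993 genes tested), whereas *Smo*, *Gli2*, *Gli3* and *Nr2f2* did not. Of all genes tested, 2.81% passed in the same direction and 3.34% in the opposite direction. The 4 members also changed by over 2-fold and reached a mean of 1 FPKM in at least 1 group, a call that 2.08% of all genes received in the lower direction. All 8 members had an unadjusted p-value under 0.05, and so did 11.4% of all genes tested in the lower direction. FPKM are the deposited values, scaled by the authors to gene length and library size, and CPM are counts scaled to library size only, computed from the counts with TMM normalization.

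**Figure D1:**
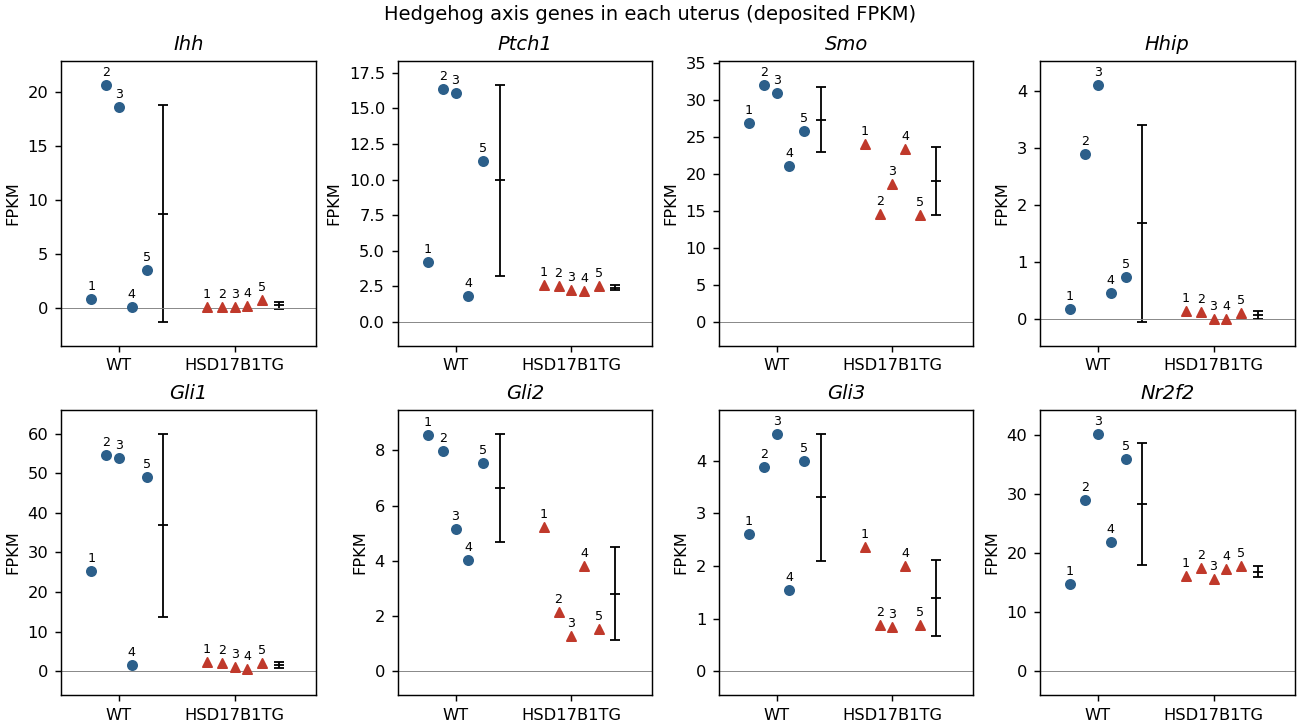
Deposited FPKM (vertical axes, linear) of the 8 genes in each of 5 WT (circles) and 5 HSD17B1TG (triangles) uteri, with the mouse number above each point and the mean with SD as a black bar beside each group. WT2 and WT3 stood highest for *Ihh*, *Ptch1*, *Smo* and *Gli1*, while WT4 lay among the HSD17B1TG mice for *Ihh*, *Smo*, *Gli1*, *Gli2* and *Gli3* and below them for *Ptch1*.

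The ligand *Ihh* (ENSMUSG00000006538, chromosome 1 from 74945315 to 74951672, minus strand, GRCm38) had 0.841, 20.6, 18.6, 0.0794 and 3.48 FPKM in WT1 to WT5 and 0.0528, 0.113, 0.0349, 0.183 and 0.759 FPKM in TG1 to TG5. WT2, WT3 and WT5 were above every HSD17B1TG mouse, WT1 was just above TG5, and WT4 lay among the HSD17B1TG mice, so the groups overlapped. The raw counts behind these values were 63, 1194, 914, 5 and 217 in WT and 3, 6, 2, 9 and 36 in HSD17B1TG, and a gene with 3 counts or fewer in a library may be absent from it. TG1 and TG3 had a ligand count that low. The log2 fold change was -5.28 (SE 1.39, adjusted p = 0.0498 in edgeR), with a mean FPKM of 0.229 ± 0.302 for HSD17B1TG and 8.72 ± 10.04 for WT (SD, n = 5 each). The SD of the WT mice exceeded their mean, since the highest WT level was 264-fold the lowest in CPM. Of the members, *Ihh* therefore had both the largest fitted change and the widest range among WT mice, and its adjusted p-value was the closest of the 4 to the threshold. Of the related ligands, *Dhh* (desert hedgehog) had FPKM of 0.139, 0.1197, 0.211, 0.154 and 0.200 in WT1 to WT5 and 0.415, 0.209, 0.0725, 0.0282 and 0 in TG1 to TG5. Its levels overlapped widely, with a log2 fold change of -0.17 (adjusted p = 0.915 in edgeR). *Shh* (sonic hedgehog) was not listed in the table.

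*Ptch1* (ENSMUSG00000021466, chromosome 13 from 63508328 to 63573598, minus strand) encodes the receptor that holds SMO inactive without ligand, and its transcription is itself a common readout of pathway activity. It had 4.22, 16.4, 16.1, 1.81 and 11.3 FPKM in WT1 to WT5 and 2.59, 2.52, 2.26, 2.21 and 2.55 FPKM in TG1 to TG5. The HSD17B1TG mice were close to each other, with a highest CPM of 1.16 times the lowest, whereas the WT mice spread 9.22-fold, and WT4 was below every HSD17B1TG mouse. This gave a log2 fold change of -2.05 (SE 0.51, adjusted p = 0.0436 in edgeR), with means of 2.43 ± 0.177 and 9.95 ± 6.70 FPKM (SD, n = 5). With 1 mouse left out it passed in 2 of 10 fits (without TG1 or WT4), with adjusted p-values up to 0.0989.

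*Smo* (ENSMUSG00000001761, chromosome 6 from 29735503 to 29761365, plus strand), which encodes the membrane protein that carries the signal inside the cell, had 27.0, 32.1, 30.9, 21.0 and 25.9 FPKM in WT1 to WT5 and 24.1, 14.7, 18.7, 23.4 and 14.5 FPKM in TG1 to TG5. The groups overlapped through WT4, which was below TG1 and TG4. Its log2 fold change of -0.53 (SE 0.19, adjusted p = 0.103 in edgeR) was the smallest of the members and did not pass the threshold.

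*Hhip* (ENSMUSG00000064325, chromosome 8 from 79965851 to 80058006, minus strand) encodes a membrane protein that binds hedgehog ligands and limits their reach. It had 0.184, 2.90, 4.11, 0.459 and 0.748 FPKM in WT1 to WT5 and 0.142, 0.133, 0.00586, 0 and 0.113 FPKM in TG1 to TG5. This was the only member whose groups did not overlap, although WT1 and TG1 were close, and 2.68% of all genes had every HSD17B1TG mouse below every WT mouse in CPM. The counts were 41, 500, 601, 86 and 139 in WT and 24, 21, 1, 0 and 16 in HSD17B1TG, and the count of 0 in TG4 allows up to 0.188 CPM (3 counts, counting error only). In the fit it fell by 4.41 on the log2 scale (SE 1.11, adjusted p = 0.0445 in edgeR), with means of 0.0788 ± 0.0701 and 1.68 ± 1.73 FPKM (SD, n = 5). Without WT3 the log2 fold change was -3.79 (adjusted p = 0.0945).

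*Gli1* (ENSMUSG00000025407, chromosome 10 from 127329882 to 127341974, minus strand), an activator whose own transcription depends on hedgehog signalling, had 25.4, 54.5, 53.9, 1.48 and 49.1 FPKM in WT1 to WT5 and 2.26, 2.14, 1.16, 0.447 and 1.98 FPKM in TG1 to TG5. WT1, WT2, WT3 and WT5 lay far above every HSD17B1TG mouse, whereas WT4 lay among them. The log2 fold change was -4.54 (SE 0.82, adjusted p = 0.0219 in edgeR), with means of 1.597 ± 0.773 and 36.9 ± 23.1 FPKM (SD, n = 5). Its adjusted p-value was the smallest of the members. The gene overlaps *Arhgap9* and *Gm47200* on the opposite strand, and the strand setting of the counting was not given in the sources used here, so reads of the shared stretch cannot be assigned with certainty. The same doubt holds for the other members except *Ihh*, each of which overlaps other annotated genes, such as *B130024G19Rik* opposite *Nr2f2* and *Gm6556* opposite *Gli3*.

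*Gli2* (ENSMUSG00000048402, chromosome 1 from 118834132 to 119053619, minus strand), the main activator upstream of *Gli1*, had 8.54, 7.98, 5.15, 4.04 and 7.53 FPKM in WT1 to WT5 and 5.24, 2.14, 1.28, 3.82 and 1.52 FPKM in TG1 to TG5. WT4 and WT3 were the lowest of the WT mice, and TG1 lay above both. *Gli3* (ENSMUSG00000021318, chromosome 13 from 15463235 to 15730026, plus strand), which mostly acts as a repressor where ligand is absent, had 2.61, 3.88, 4.51, 1.54 and 3.99 FPKM in WT1 to WT5 and 2.36, 0.875, 0.842, 2.005 and 0.884 FPKM in TG1 to TG5. WT4 lay below TG1 and TG4, and the other WT mice were above all HSD17B1TG mice. Both genes had a log2 fold change of -1.25 (SE 0.39 for each), with adjusted p-values of 0.0770 for *Gli2* and 0.0749 for *Gli3* in edgeR that did not pass the threshold. In both, TG1 and TG4 were the highest HSD17B1TG mice.

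*Nr2f2* (ENSMUSG00000030551, chromosome 7 from 70351944 to 70366735, minus strand) had 14.7, 29.0, 40.2, 21.8 and 35.9 FPKM in WT1 to WT5 and 16.2, 17.5, 15.6, 17.3 and 17.8 FPKM in TG1 to TG5. The HSD17B1TG mice were within 1.16-fold of each other in CPM, as for *Ptch1*, and here it was WT1, not WT4, that lay below them. Its log2 fold change of -0.76 (SE 0.24, adjusted p = 0.0814 in edgeR) did not pass the threshold, and the means were 16.9 ± 0.923 and 28.3 ± 10.3 FPKM (SD, n = 5). *Nr2f2* and *Smo* were, per length, the most abundant members in HSD17B1TG, with *Smo* at 19.1 ± 4.58 FPKM, while *Gli1* had the highest mean in WT.

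**Figure D2:**
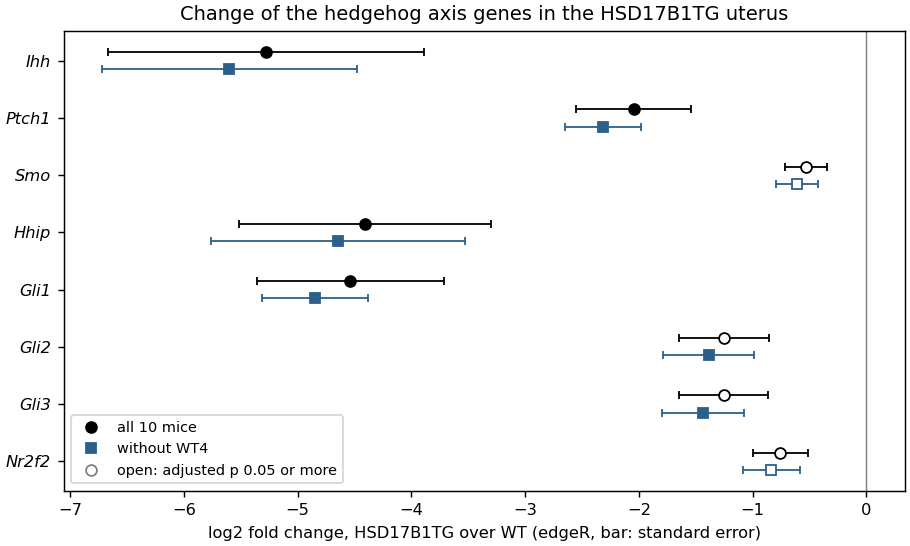
The log2 fold change of HSD17B1TG over WT (horizontal axis) with its standard error from edgeR, for all 10 mice (circles) and without WT4 (squares), where filled symbols mark an adjusted p under 0.05. All values lie below 0, and without WT4 *Gli2* and *Gli3* pass as well, while *Smo* and *Nr2f2* do not.

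Each member was also compared without a count model, by a two-sided exact permutation test of the mean log2(CPM + 1) over all assignments of the 10 mice to 2 groups of 5, in which no p below 0.00794 can be reached. The unadjusted p-values were 0.00794 for *Hhip*, 0.0238 for *Gli2*, 0.0317 for *Gli1* and *Gli3*, 0.0397 for *Smo*, and 0.0476 for *Ihh*, *Ptch1* and *Nr2f2*. In the same test 10.9% of all genes were under 0.05 in the lower direction. With ranks in place of log2 values, 4 of the 8 stayed under 0.05, and *Ihh*, *Gli1*, *Ptch1* and *Nr2f2* did not, with exact permutation p-values of 0.0556, 0.0556, 0.151 and 0.151. By ranks 7.92% of all genes were under 0.05 in the lower direction.

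The WT mice differed widely, and the order of WT mice was shared by part of the axis. In *Ihh*, *Ptch1* and *Gli1*, CPM decreased in the order WT2, WT3, WT5, WT1 and WT4. *Hhip* and *Nr2f2* had WT3 on top and WT1 at the bottom. WT4 had 0.00707 times the median of the other WT mice for *Ihh*, 0.0284 times for *Gli1*, 0.130 times for *Ptch1* and 0.247 times for *Hhip* in CPM, but 0.661 times for *Nr2f2* and 0.720 times for *Smo*. WT1 had an *Ihh* level below those of WT2, WT3 and WT5 but 7.33 times the HSD17B1TG median. Its *Gli1* level was 12.7 times and its *Ptch1* level 1.65 times the HSD17B1TG median. In HSD17B1TG, TG5 had the highest *Ihh* level, at 2.34 CPM, without standing out for *Gli1*, at 10.01 CPM against 11.3 CPM in TG1. Without WT4, 6 of the 8 members did not overlap between groups, the exceptions being *Gli2* and *Nr2f2*, where leaving out that mouse gave 7.09% of all genes without overlap in this direction. WT4 was the mouse that made most of the members overlap, so a higher count without it follows in part from the choice. In edgeR 6 passed the adjusted threshold without WT4, the exceptions being *Smo* and *Nr2f2*. In that fit 6.07% of 17344 genes passed in the lower direction. With so few mice and no cycle phase for each, no correlation between the genes was computed.

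**Figure D3:**
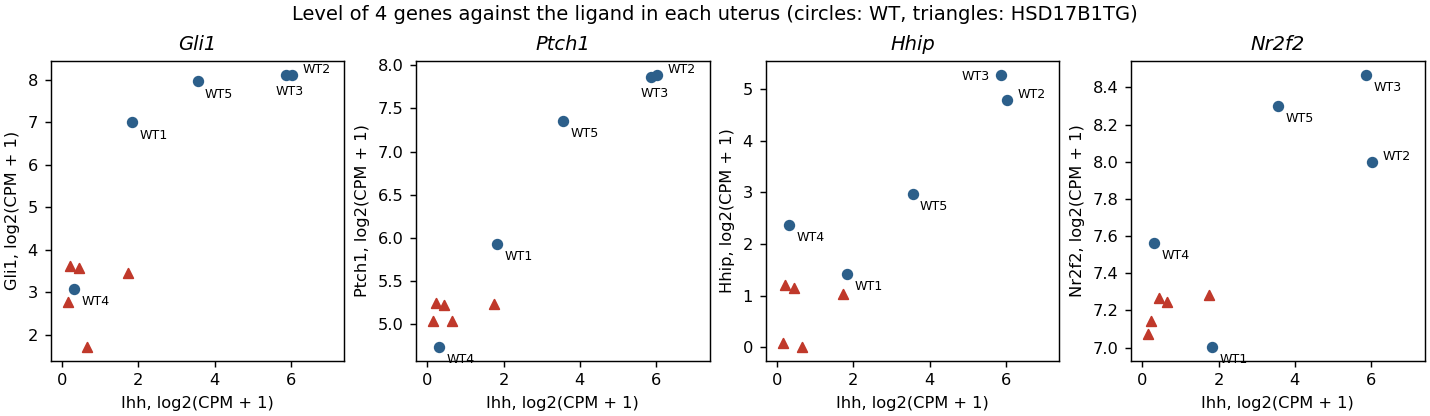
Level of *Gli1*, *Ptch1*, *Hhip* and *Nr2f2* (vertical axes) against *Ihh* (horizontal axes) in each uterus, all as log2(CPM + 1), with WT as circles and HSD17B1TG as triangles. WT4 lies with the HSD17B1TG mice for *Gli1* and *Ptch1*, while WT1 is just above TG5 in *Ihh* and far above every HSD17B1TG mouse in *Gli1*.

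Markers of stroma and epithelium, the reported compartments of the members, were compared beside them. The summed CPM of 12 stromal markers was 14710 to 18454 in WT and 3966 to 15565 in HSD17B1TG, where TG1 alone reached the WT range. *Pdgfra* (-1.99, adjusted p = 0.0219 in edgeR), *Thy1* (-2.08, adjusted p = 0.0415) and *Col3a1* (-1.46, adjusted p = 0.0445) fell on the log2 scale, 3 of 12. With 1 mouse left out, *Pdgfra* passed in 7 of 10 fits, and *Thy1* and *Col3a1* in 2 of 10. Of the others *Lum* (0.51) and *Ecm1* (0.34), named after their values were seen, had positive log2 fold changes, and 7 of 12 had an unadjusted p under 0.05, while DESeq2 passed 6 and voom 8. WT4, low for *Ihh* and *Gli1*, had a stromal sum of 17495 CPM within the WT range. The summed CPM of 12 epithelial markers was 903 to 4852 in WT and 2213 to 9367 in HSD17B1TG, with WT4 as the highest WT mouse. All 12 had a positive log2 fold change and 0 passed the adjusted threshold in edgeR, against 8 at an unadjusted p under 0.05, 3 in DESeq2 and 9 in voom, with *Cldn7* (1.54, adjusted p = 0.0755), *Elf3* (2.37, adjusted p = 0.0804) and *Cdh1* (1.20, adjusted p = 0.103) the nearest.

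**Figure D4:**
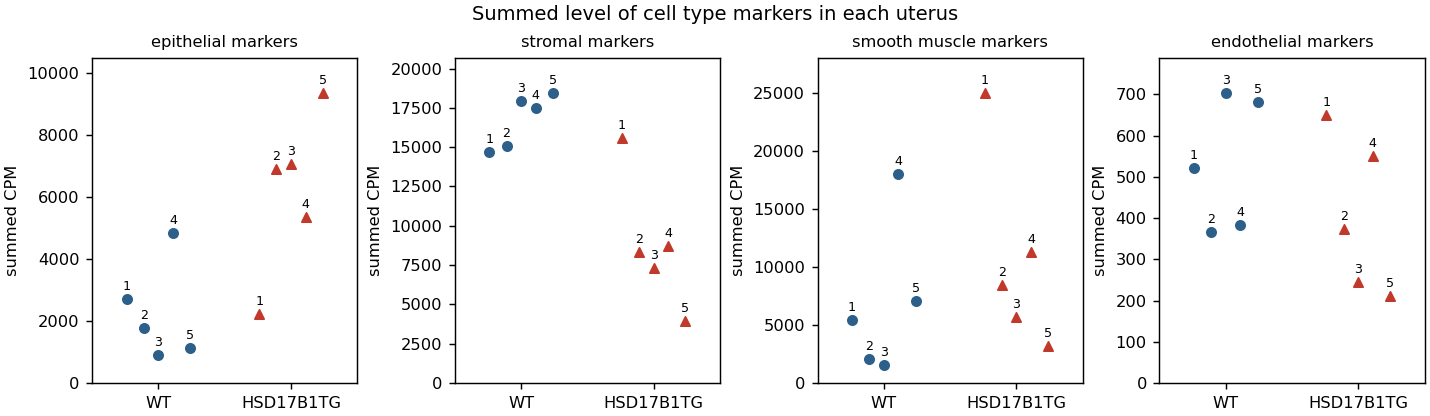
Summed CPM (vertical axes, from 0) of epithelial, stromal, smooth muscle and endothelial markers in each WT (circles) and HSD17B1TG (triangles) uterus, with the mouse number above each point. The stromal sums of TG2 to TG5 lie below every WT mouse, and WT4 has the highest epithelial and smooth muscle sums of the WT mice.

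As an alternative chosen after seeing the data, each member was divided by the marker sum of its reported compartment. *Ihh* over the epithelial sum remained lower in HSD17B1TG by a log2 difference of -4.46 (exact permutation test, unadjusted p = 0.0317), and by -5.60 without WT4. Divided by the same sum, 59.9% of all genes were lower with a p under 0.05, so the p for *Ihh* is not a result about this gene. *Gli1* over the stromal sum remained lower by -2.77 (exact permutation p = 0.0397), and by -3.73 without WT4. Divided by the stromal sum, 0.33% of all genes were lower with a p under 0.05 over all 10 mice. That sum had a mean of 8772 CPM in HSD17B1TG and 16740 CPM in WT, so division by it raises every gene in HSD17B1TG relative to WT. The small share follows in part from this and does not measure how unusual *Gli1* is. For *Hhip* the difference was -1.62 (exact permutation p = 0.0873) and for *Ptch1* -0.54 (exact permutation p = 0.444, and -1.06 without WT4). *Gli2* and *Gli3* had differences of -0.28 and -0.17, and *Nr2f2* and *Smo* had positive differences of 0.40 and 0.52, none with an exact permutation p under 0.05. The stromal sum consists largely of collagen transcripts, and its part in the members' levels was not tested further.

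The sums of the remaining marker lists also overlapped between the groups. Of 10 smooth muscle markers 0 passed in edgeR, at an unadjusted p under 0.05, in DESeq2 or in voom (*Smtn*, *Lmod1* and *Synm* nearest in edgeR), with summed CPM of 1527 to 17949 in WT and 3161 to 24969 in HSD17B1TG, and WT4 and TG1 were the highest of their groups. Of 11 endothelial markers 0 passed in edgeR, against 5 at an unadjusted p under 0.05, 3 in DESeq2 and 5 in voom, with *Emcn* at -1.36, *Flt4* at 1.64 and *Prox1* at 2.38 on the log2 scale, and the sums overlapped (367 to 704 and 210 to 650 CPM). *Itgam* (3.86, adjusted p = 0.0279 in edgeR) and *Laptm5* (1.28, adjusted p = 0.0312) rose, 2 of 8 leucocyte markers tested. The other 6 had a negative log2 fold change, among them *Ptprc* with -1.08 (adjusted p = 0.0558), the median of the list was -0.43, 5 of 8 had an unadjusted p under 0.05, and DESeq2 and voom each passed *Ptprc* and *Cd52* as lower beside the 2 higher. *Itgam* passed in 3 and *Laptm5* in 4 of the 10 fits with 1 mouse left out, and *Itgam* moved to 5.22 without WT4. The sums were 296 to 542 CPM in WT and 464 to 673 CPM in HSD17B1TG. Of 5 oviduct and multiciliated cell markers tested, 0 passed in edgeR (*Dnah5*, *Rsph1* and *Pax8* nearest), 1 had an unadjusted p under 0.05, DESeq2 passed 2 of the 7 it adjusted and voom 0, with sums of 56.2 to 70.0 CPM in WT and 50.4 to 105 CPM in HSD17B1TG. Of 8 proliferation genes 0 passed in edgeR, at an unadjusted p under 0.05 or in voom (*Ccna2*, *Mcm6* and *Cdk1* nearest in edgeR). DESeq2 gave an adjusted p for 1 of them, which did not pass. All 8 had a negative log2 fold change (median -0.68), and the sums were 130 to 650.2 CPM in WT, 28.8 to 70.8 CPM in TG1, TG2, TG4 and TG5, below every WT mouse, and 1319 CPM in TG3. Their part in the members' levels was not tested.

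The machinery that makes, receives and transmits the signal was described with lists written by hand, beside a median log2 fold change of 0.0021 over all genes tested. Of 6 genes for ligand production and release, *Scube1*, which encodes a secreted protein that helps release hedgehog ligands, fell by 2.91 on the log2 scale (SE 0.65, adjusted p = 0.0340 in edgeR), from 31.5, 31.0, 11.4, 6.49 and 18.6 FPKM in WT1 to WT5 to 1.52, 3.45, 6.22, 0.562 and 1.45 FPKM in TG1 to TG5. The groups did not overlap, and TG3 and WT4 were the closest. *Disp1*, which exports the ligand, had a log2 fold change of 0.72 (adjusted p = 0.0511), also without overlap, and DESeq2 and voom passed it as higher beside *Scube1* as lower. The median of the list was 0.29. *Scube1* passed in 3 of 10 fits with 1 mouse left out, and moved to -3.52 without TG3. Of 6 co-receptors and ligand-binding surface proteins, *Lrp2* fell (log2 fold change -4.82, SE 1.07, adjusted p = 0.0336 in edgeR), and the median of the list was 0.14. DESeq2 passed *Lrp2* and *Gpc3* and voom passed 0. With 1 mouse left out *Lrp2* passed in 3 of 10 edgeR fits, and without WT3 it had -3.35 (adjusted p = 0.0578). *Gpc3*, a glypican that competes for ligand, had -1.97 (adjusted p = 0.0869), while the co-receptors *Cdon*, *Boc* and *Gas1* had 0.49, 0.56 and 0.64.

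Of 24 cytoplasmic and ciliary regulators 0 passed in edgeR, against 6 at an unadjusted p under 0.05, 1 in DESeq2 (*Sufu*) and 4 in voom, with a median of -0.21. *Sufu*, which restrains the GLI factors, had -0.72 (adjusted p = 0.0555), *Tulp3* -0.70 (adjusted p = 0.107) and *Evc2* -1.04 (adjusted p = 0.142). Of 22 genes of primary cilium assembly 0 passed in edgeR and in DESeq2, against 3 at an unadjusted p under 0.05 and 3 in voom, with a median of -0.09 and *Ift80*, *Ift27* and *Ift122* at -0.56, -0.55 and 0.50. The primary cilium is the organelle on which the pathway depends. Among 14 other reported hedgehog targets that were tested, *Ccnd2*, a cyclin gene, fell by 1.32 on the log2 scale (adjusted p = 0.0274 in edgeR) and *Osr2*, a mesenchymal transcription factor gene, by 2.35 (adjusted p = 0.0303). With 1 mouse left out, each of these 2 genes passed in 4 of 10 fits. *Rab34* had -1.09 (adjusted p = 0.0667), and the median of the list was -0.67. Of the 14, 5 had a positive log2 fold change, among them *Foxc2* (2.35, adjusted p = 0.0723 in edgeR), which DESeq2 and voom passed as higher, and *Mycn* (1.29, adjusted p = 0.274). *Osr2* had 12.2 FPKM in WT4 against 40.7 to 103 FPKM in the other WT mice and 9.36 to 19.5 FPKM in HSD17B1TG, thus the same placing of WT4 as for *Gli1*.

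**Figure D5:**
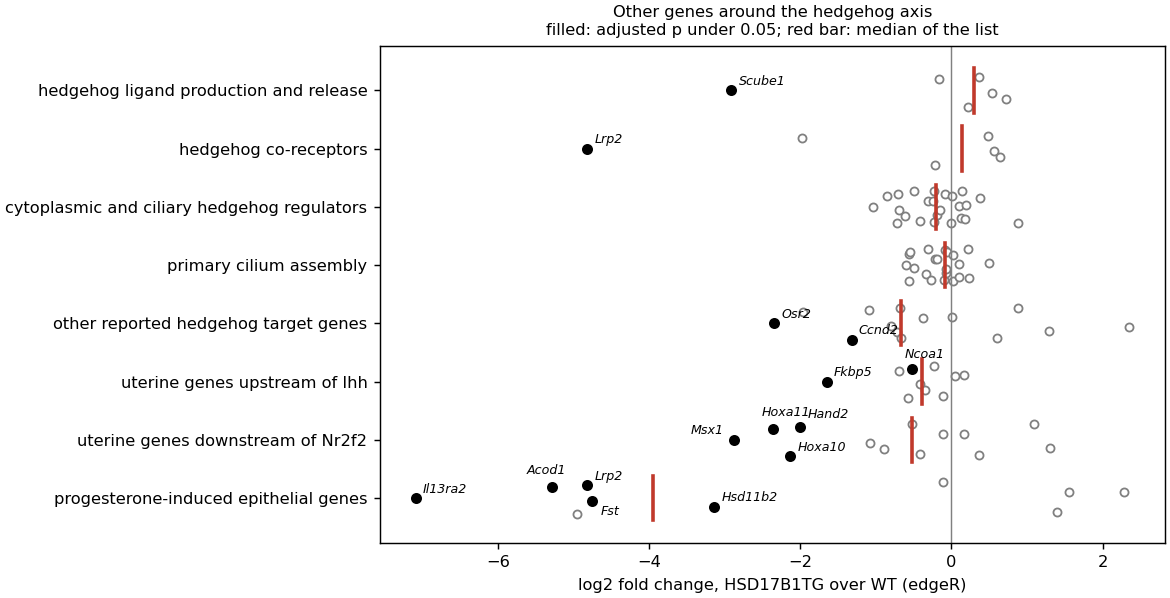
The log2 fold change of HSD17B1TG over WT (horizontal axis, edgeR) for each tested gene of 8 lists around the axis, with filled and named points for an adjusted p under 0.05 and a red bar at the median of each list. All filled points lie below 0, and the lists of regulators and of cilium genes hold no filled point.

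Upstream of the ligand, the progesterone receptor gene *Pgr* had 57.1, 68.0, 21.5, 55.3 and 39.2 FPKM in WT1 to WT5 and 58.5, 30.9, 27.5, 17.9 and 14.3 FPKM in TG1 to TG5. The groups overlapped through WT3 and TG1, with a log2 fold change of -0.70 (adjusted p = 0.298 in edgeR), and WT3 was low in *Pgr* but high in *Ihh*. *Fkbp5*, a chaperone gene induced by progesterone and glucocorticoids, fell by 1.65 on the log2 scale (SE 0.28, adjusted p = 0.0199), and its groups did not overlap. Being itself induced by progesterone, it belongs poorly in a list of genes upstream of *Ihh*. *Ncoa1*, a coactivator gene, fell by 0.52 (adjusted p = 0.0368), 2 of 10 genes of that list. With 1 mouse left out, *Fkbp5* passed in 7 and *Ncoa1* in 3 of 10 fits. *Pgrmc1* had -0.58 (adjusted p = 0.0904), and the median was -0.39. WT4 had 3.24 FPKM of *Fkbp5*, within the WT range of 2.14 to 5.04 and above the 0.760 to 1.56 of HSD17B1TG, unlike its placing for *Ihh*.

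Of 10 progesterone-induced epithelial genes tested, 5 fell in edgeR and 0 rose, with a median of -3.95. They were *Il13ra2* (-7.09, SE 0.94, adjusted p = 0.0149, with counts of 1, 1, 1, 0 and 7 in TG1 to TG5, so that the size of its change is uncertain), *Hsd11b2* (-3.14, SE 0.64, adjusted p = 0.0268), *Lrp2*, *Fst* (-4.76, adjusted p = 0.0388) and *Acod1* (-5.28, adjusted p = 0.0493). *Hsd11b2*, which encodes the enzyme that inactivates glucocorticoids, had 236 to 706 FPKM in WT and 7.89 to 123 FPKM in HSD17B1TG, with WT4 the lowest WT mouse. Its log2 fold change was -3.83 without TG2. WT3 carried much of the change of others in the list. *Acod1* had 24.7 FPKM in WT3 against 0.222 to 1.91 FPKM in the other WT mice, *Fst* 34.0 against 1.20 to 8.60, and *Lrp2* 21.7 against 0.618 to 4.13. Without WT3 their log2 fold changes were -2.73, -3.30 and -3.35, none past the threshold (adjusted p = 0.0939, 0.0757 and 0.0578 in edgeR). *Fst* moved to -5.54 without TG4 and *Acod1* to -5.92 without TG5. *Il13ra2* passed in all 10 fits with 1 mouse left out and ranged from -8.45 (without TG5) to -6.37 (without WT3). Of the same 10 fits, *Hsd11b2* passed in 5, *Fst* and *Lrp2* in 3 each and *Acod1* in 1. DESeq2 gave no adjusted p for *Acod1*, and voom passed *Il13ra2* and *Hsd11b2* as lower and *Muc1* as higher. The list also held *Muc1* (2.28, adjusted p = 0.0982), which in the mouse uterus is known to be raised by estrogen and so belongs poorly among progesterone-induced genes, *Cldn4* (1.56, adjusted p = 0.101) and *Spp1* (1.40, adjusted p = 0.210), whose fitted levels were higher in HSD17B1TG and did not pass in edgeR, while DESeq2 passed *Muc1* and *Cldn4*, among 7 passed of the 9 it adjusted. *Fst*, *Acod1*, *Muc1*, *Cldn4* and *Spp1*, *Cdon* and *Gas1* among the co-receptors, *Foxc2* and *Mycn* among the targets, *Cd52* among the leucocyte markers, and *Hoxa10* in the list placed downstream of *Nr2f2*, were named after their values were seen.

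Of 13 genes placed by hand downstream of *Nr2f2*, 4 fell in edgeR and in DESeq2 and 0 rose, with a median of -0.52. Whether these genes depend on *Nr2f2*, which itself did not pass in edgeR, was not tested. *Hand2*, the stromal factor through which progesterone restrains epithelial growth, had 13.4, 25.1, 33.2, 11.4 and 28.2 FPKM in WT1 to WT5 and 8.17, 5.89, 4.82, 3.85 and 5.27 FPKM in TG1 to TG5. The groups did not overlap, with WT4 the lowest WT mouse, and the log2 fold change was -1.998 (SE 0.33, adjusted p = 0.0177 in edgeR). The homeobox genes *Msx1* (-2.88, adjusted p = 0.0207), *Hoxa11* (-2.36, adjusted p = 0.0224) and *Hoxa10* (-2.14, adjusted p = 0.0268) fell as well. *Msx1* did not overlap between the groups, whereas *Hoxa11* and *Hoxa10* did, with WT4 below TG1. With 1 mouse left out, *Hand2* passed in 9, *Msx1* in 6, and *Hoxa11* and *Hoxa10* in 4 of 10 fits each. *Bmp2*, the decidual growth factor gene, had -0.89 (adjusted p = 0.123), and *Wnt4* had 1.09 (adjusted p = 0.354), with 0.651 to 20.4 FPKM in WT and 6.96 to 29.97 FPKM in HSD17B1TG. Both overlapped between the groups.

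The genes whose pattern over the 10 mice lay closest to 4 members were sought among all genes tested, by the root mean square distance of log2 CPM centred on each gene's mean. This search used the same mice and is a description. Closest to *Ihh* were *Ndp* (0.86), *Slc6a2* (0.97) and *Sult1d1* (1.02), against a spread of *Ihh* about its own mean of 2.95. Closest to *Gli1* were *Lrrn1* (0.72), *6030408B16Rik* (0.73) and *Cldn8* (0.82), against a spread of 2.52. The closest member to *Gli1* was *Ihh*, at 1.43. Closest to *Ptch1* were *Lrrc17* (0.23), *Gm34030* (0.32) and *Twist2* (0.33), against a spread of 1.20. The closest member to *Ptch1* was *Gli3*, at 0.70, while *Gli1*, *Hhip* and *Ihh* lay at 1.48, 1.80 and 1.84, beyond that spread. *Lrrc17* had 13.3, 46.9, 39.5, 5.61 and 28.3 FPKM in WT1 to WT5 and 5.02 to 8.27 FPKM in HSD17B1TG, so WT4 was again within the HSD17B1TG values. Closest to *Nr2f2* were *Zfp566* (0.18), *Nubpl* (0.19) and *Fn3krp* (0.20), against a spread of 0.51, and the closest member was *Smo* at 0.43.

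The number of members past the adjusted threshold depended on the test and on single mice. DESeq2's Wald test passed 7 of 8, all but *Smo*, where it passed 5.64% of the 21712 genes it adjusted in the lower direction, and limma's voom passed 5 of 8 (*Gli1*, *Gli2*, *Gli3*, *Ptch1* and *Smo*), where it passed 7.76% of all genes in the lower direction. In voom *Ihh* (adjusted p = 0.169) and *Hhip* (adjusted p = 0.0768) did not pass. Leaving out 1 mouse gave 0 to 6 members past the threshold in edgeR. The count was 0 without TG2, TG4, TG5, WT2 or WT5 and 6 without WT4, while all 8 kept a negative log2 fold change and an unadjusted p under 0.05 in each of these fits, in which 9.31% to 14.3% of all genes had such a p in the lower direction. For *Ihh*, the log2 fold change lay between -6.51 (without TG5) and -4.69 (without WT2) over these fits, with adjusted p-values between 0.0135 and 0.114, and it passed in 1 of 10, without WT4. For *Gli1* it lay between -4.85 and -4.30, with adjusted p-values between 0.00128 and 0.0573, and it passed in 5 of 10. *Hhip* passed in 2 of 10, without TG1 or WT4.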

How the data were processed

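Uterine RNA of 5 HSD17B1TG and 5 WT mice gave paired-end reads of 150 bp, which the authors aligned with HISAT2 2.0.5 to GRCm38 with Ensembl 94 genes. The authors deposited raw counts per gene and FPKM for each mouse, and their own comparison columns and lists, which were not used. The counting program and its strand setting were not given in the sources used here. Total counts lay between 14817228 and 23271988 per mouse. The depth limits low genes, and floors cover counting error only. The labels do not say how the libraries were batched, so no batch was modelled.

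In edgeR 4.0.16 (R 4.3.3), low counts were removed by filterByExpr, TMM factors were computed, and genotypes were compared by the quasi-likelihood test. Standard errors are the log2 fold change divided by the square root of F. Alternatives used DESeq2 1.42.0 and limma 3.58.1, other normalizations, filters and scales, and each mouse left out in turn. Single values were compared by exact permutation tests (8 members, unadjusted). The code was tested on simulated data. The members, the 15 gene lists and the tests were chosen with earlier results of these data known, and the lists rest on textbook knowledge, not on the study. Named genes are the 8 members, up to 3 genes of each list with the smallest p, *Pgr*, *Bmp2*, *Hand2*, *Wnt4*, *Shh* and *Dhh*, and the 3 genes closest to each of *Ihh*, *Gli1*, *Ptch1* and *Nr2f2*. *Lrp2* and *Gata2* are each in 2 lists. Another gene covered by the rule is not reported here. Promoter windows are from RefSeq (GRCm38.p6), in which 7 of 8 members matched. Coordinates are those of the deposited table and were the same in GENCODE M21.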

Additional observations from a re-analysis of the deposited data

Results flagged for a closer look

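*Gli1* in WT stood out for 1 mouse. WT4 had 7.41 CPM against 127 to 277 CPM in the other WT mice, and on the log2(CPM + 1) scale its gap to the nearest mouse divided by the range of the group was 0.778, above Dixon's 95% critical value for 5 samples. On the CPM scale the ratio was 0.443, which is below that value. This was 1 of 16 checks, 1 for each member in each group, and chance exceeds the value in about 1 of 20 groups. The cycle phase of WT4 was not given in the sources used here.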

How the results depend on the processing

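All 152 log2 fold changes of the 8 members under the 19 alternative settings kept the negative direction. Of these, 103 stayed on the same side of the adjusted threshold, 37 no longer passed it and 12 passed it in addition. Against 4 members past the threshold, DESeq2 passed 7, an adjusted p under 0.1 in edgeR passed 7 (6.4% of all genes, lower), limma on log2(FPKM + 1) passed 1 (*Gli1*; 2.47%) and on log2(FPKM + 0.1) passed 2 (*Gli1* and *Hhip*; 2.69%). The cause of these differences was not tested. Of all genes past the threshold, 478 of 1046 were lower with TMM, 615 of 1089 with upper-quartile factors and 791 of 1195 with library sizes only, which moved the median log2 fold change of all genes from 0.0021 to -0.17.

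Leaving out 1 mouse gave between 0 and 6 members past the threshold. The count was 0 without TG2, TG4, TG5, WT2 or WT5, 1 (*Gli1*) without TG3 or WT3, 2 (*Gli1* and *Nr2f2*) without WT1, 5 without TG1 and 6 without WT4. Over all genes tested, 4.66% passed as lower without TG3, 0.487% without WT3, 0.973% without WT1, 4.89% without TG1 and 6.07% without WT4. In the fits with 0, all 8 members still had an unadjusted p under 0.05 in edgeR, the smallest adjusted p of a member lay between 0.0531 and 0.0573, and over all genes tested 76 to 171 passed, against 1046 with all mice. DESeq2 was not rerun with mice left out. The genes past the threshold per list without 1 mouse ranged from 1 to 7 for the progesterone-induced list, 0 to 5 for the lists downstream of *Nr2f2* and of other targets, 0 to 4 for the regulators, 0 to 3 for the list upstream of *Ihh*, 0 to 2 for ligand release and for co-receptors, and 0 to 1 for the cilium.

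Members with an exact permutation p under 0.05 numbered 8 with log2 values (10.9% of all genes, lower), 4 with ranks, 2 to 7 with 1 mouse left out and 2 after division by marker sums, a setting chosen after seeing the data. The shares of all genes were 7.92% with ranks and 7.67% to 12.8% with 1 mouse left out. Of the 2 after division, *Ihh* stands beside 59.9% of all genes over the epithelial sum, which makes its p uninformative. *Gli1* stands beside 0.33% over the stromal sum, a share kept small in part by the lower stromal sum in HSD17B1TG. Members without overlap numbered 1, and 1 to 6 with 1 mouse left out, namely 2 without TG1 (5.76% of all genes, lower) or WT1 (3.41%) and 6 without WT4 (7.09%). No paired analysis was possible because the labels name no litter, batch or day, and the numbers of the mice only name them in ascending order. With 5 mice in each group, a p that misses the threshold does not show that levels were alike.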
